A study of Mus musculus with 10 samples.

Results

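Among the cells sorted as microglia from cultured brain slices, 207 of 6634 cells are described here as neutrophils. They were selected on the RNA of 2 genes, as cells in which *S100a8* and *S100a9* together made up at least 1% of the unique molecular identifiers (UMIs, each standing for 1 captured RNA molecule). Only cells with at most 5% mitochondrial UMIs, at least 400 genes and at most 30000 UMIs were read, and all 10 libraries held 19059 such cells. The share of *S100a8* and *S100a9* is therefore a description, and so is every difference between the neutrophil cells and the other cells of the same libraries.

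The study asked how microglia in brain slices change over time in culture. Slices were cut from the brains of newborn C57BL/6 pups and cultured for 1 day, 1 week or 3 weeks, with 2 libraries for each of the 3 culture times and no treatment or genetic change. Cells were sorted as live, CD11b high and CD45 intermediate and sequenced with the 10x Genomics 3' kit v2, as were microglia of adult C57BL/6 brain and of mixed glial *in vitro* cultures. The labels do not say whether the 2 libraries of a time came from separate litters, so the spread between them may include technical variation. At 1 day and at 1 week the sex-linked RNA given below differed between the 2 libraries, so these came from different animals.

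Neutrophils are short-lived granulocytes made in bone marrow, and they are rare in healthy brain tissue. As they mature they fill first primary, then specific and last gelatinase granules with proteases and antimicrobial proteins, and the genes of each granule are read in that order. The mature cell stops most of this transcription, carries receptors such as CXCR2 for chemokines, and is known for a cytosol rich in calprotectin, the S100A8 and S100A9 heterodimer.

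At 1 day, 68 of 518 cells in replicate 1 and 114 of 1014 cells in replicate 2 were neutrophils. These are 13.1% (exact 95% interval 10.3 to 16.3) and 11.2% (9.36 to 13.3) of the cells, a mean of 12.2% ± 1.33 (SD, n = 2). At 1 week the libraries stood far apart, with 24 of 148 cells in replicate 1 and 1 of 61 cells in replicate 2. The shares were 16.2% (10.7 to 23.2) and 1.64% (0.0415 to 8.80), a mean of 8.93% ± 10.3 (SD, n = 2). At 3 weeks none of 1153 and none of 3740 cells passed, which allows shares of up to 0.260% and 0.0802%. The 3-week libraries thus had the lowest shares, though their limits overlap the interval of 1-week replicate 2, and 1 day and 1 week overlapped. Between any pair of times, with 2 libraries each, no two-sided permutation test can go below p = 0.333, and the shares were left untested. The intervals and limits cover counting error only, and the sort on intermediate CD45 can set the share of neutrophils that is seen. Both 1-day and both 1-week libraries, and 3-week replicate 2, carry the same study label, while 3-week replicate 1 carries another.

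**Figure D1:**
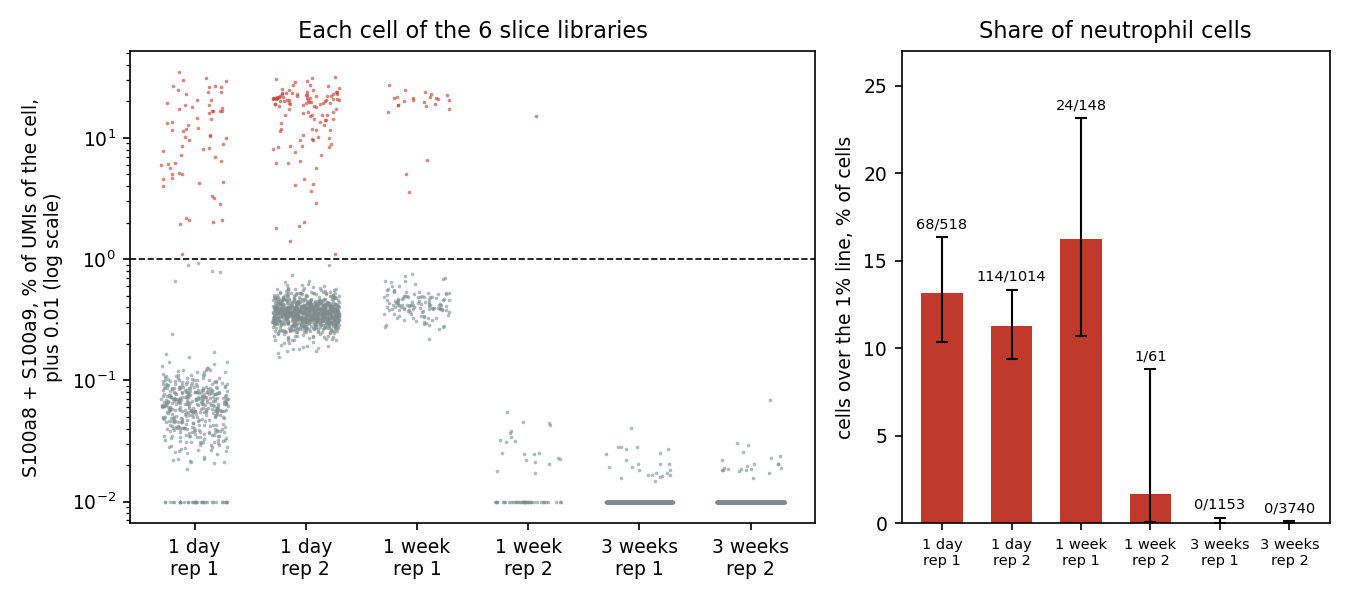
Left, the percentage of each slice cell's UMIs that came from *S100a8* and *S100a9* (log axis, 0.01 added), with cells over the 1% line in red and others in grey. Right, the percentage of cells over the line in each library with exact 95% intervals and the counts of cells: the 3-week libraries held none of 1153 and none of 3740.

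Cells on either side of the 1% line were as follows. In 1-day replicate 1 the lowest neutrophil cell had 1.10% and the highest other cell 0.914%, in 1-day replicate 2 these were 1.08% and 0.888%, and in 1-week replicate 1 they were 3.57% and 0.749%. Between 0.5% and 1% lay 5, 42 and 23 other cells of these libraries. The median share in neutrophil cells was 10.9%, 19.1% and 20.5% in the same order, and 53 of 68, 104 of 114 and 23 of 24 cells held over 5%. In adult and *in vitro* libraries none of 12425 cells passed, with a highest share of 0.106%.

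Genes high in the neutrophil cells also had UMIs in the other cells of these 3 libraries, and the source of these UMIs was not tested. An *S100a8* or *S100a9* UMI was found in 415 of 450 other cells of 1-day replicate 1, in 900 of 900 of replicate 2 and in 124 of 124 of 1-week replicate 1. It was found in 21 of 60 in 1-week replicate 2, and in 25 of 1153 and 22 of 3740 at 3 weeks. Over 16 genes that were high in the neutrophil cells, the level in the other cells was a median of 1.44%, 2.17% and 1.85% of that in the neutrophil cells of the same library (range over genes and libraries 0.191 to 17.3%). The lowest fractions were 0.191%, 1.02% and 0.867%, and the 16 genes had been chosen as at least 4-fold higher in the neutrophil cells. Shares of cells with a UMI are given below beside those of the other cells.

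Neutrophil cells gave fewer UMIs than their neighbours. Their median UMIs were 2224 against 6986 in 1-day replicate 1, 4925 against 8901.5 in 1-day replicate 2, and 4490.5 against 7292 in 1-week replicate 1. Their median genes were 939.5, 1407.5 and 1271.5, against 2262.5, 2664 and 2352.5. Mitochondrial UMIs were a median of 0.588%, 0.738% and 0.697%, against 1.24%, 1.17% and 1.36%. Neutrophils made 4.69%, 8.13% and 13.7% of the UMIs of these libraries. No cell barcode was a neutrophil in more than 1 slice library, and 3 neutrophil barcodes recurred as other cells of another slice library. In 1-day replicate 1 the neutrophil cells carried 35 *Xist* UMIs and none from 4 Y-linked genes, beside 2540 and 0 in the other cells, and in 1-week replicate 1 they carried 28 and 0, beside 761 and 0. In 1-day replicate 2 they carried 57 Y-linked and 11 *Xist* UMIs, beside 1093 and 16 in the other cells. The cell of 1-week replicate 2 had neither kind, and its neighbours had 45 Y-linked UMIs.

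The neutrophil cells also carried markers that the rule had not used. Among these, *Stfa1*, *Stfa2* and *Stfa2l1* were known in advance as leading genes of these cells. Of 16 further markers, each cell thinned to 1000 UMIs carried a median of 6, 8 and 8 in 1-day replicates 1 and 2 and 1-week replicate 1, against 0, 1 and 2 in the other cells. At least 3 of them were present in 64 of 68, 109 of 114 and 23 of 24 neutrophil cells, and in 1 of 450, 152 of 900 and 32 of 124 other cells. No neutrophil cell lacked all of them, though the lowest counts in a cell were 2, 1 and 2 in the same order. *Cxcr2*, the receptor for neutrophil-attracting chemokines, had a UMI in 64.7%, 29.8% and 25% of thinned neutrophil cells and in 0.667%, 0.778% and 0% of thinned other cells. *Mmp9*, the gelatinase of the last granules, had one in 72.1%, 63.2% and 33.3% against 2.89%, 1.89% and 0%. Before thinning the shares for *Cxcr2* were 83.8%, 79.8% and 79.2% against 2.89%, 6.11% and 4.84%. *Ly6g*, the antigen by which mouse neutrophils are usually sorted, was seldom caught, in 2 of 68, 17 of 114 and 8 of 24 cells against 1 of 450, 5 of 900 and 1 of 124 others.

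The highest genes were calprotectin and the stefin A cluster, inhibitors of cysteine proteases. Levels are given as UMIs per 1000000 UMIs summed over the cells of a class in a library (CPM), in the order 1-day replicate 1, 1-day replicate 2 and 1-week replicate 1. *S100a8* was at 100942, 116617 and 116382 CPM in neutrophil cells and at 375, 1983 and 2350.2 CPM in the others, and *S100a9* at 41924, 67122 and 69105 against 179, 1484 and 1799 CPM. Both were chosen by the rule. *Stfa1*, outside the rule, was at 18935, 29444 and 28268 CPM against 36.1, 366 and 378 CPM. Its mean log2 ratio was 7.05 ± 1.41 (SD, n = 3 libraries, 10 CPM added to each side), the highest of the 3101 genes read. Of the stefin A list 7 of 7 genes were at least 4-fold higher in each library, with *BC100530* at a mean log2 ratio of 6.89, *Stfa2l1* at 6.86, *Stfa2* at 6.69, *Gm5483* at 6.64 and *Stfa3* at 6.00. *BC117090* was at 175, 253 and 677 CPM against 0, 0.114 and 0 CPM. Across all genes 93 of 3101 (3.0%) were as much higher (44 with 50 CPM added, 143 with 1 CPM), and nothing is tested here since the rule chose the cells. The stefin A genes are near-identical copies, so how their reads were divided among them is uncertain.

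Promoters of these genes were set beside each other because their RNAs are high in the same cells. The 250 bases before the RefSeq start of 6 of them, build GRCm38.p6, are printed 5′ to 3′ on the strand of the gene. Capitals mark TTGCNNAA, a form of the site of C/EBP factors, and GAGGAA, a form of the site of PU.1, each read on both strands. The regions are chr3:90668821-90669070 (*S100a8*, plus strand), chr3:90695722-90695971 (*S100a9*, minus), chr16:36276898-36277147 (*Stfa1*, plus), chr9:110419558-110419807 (*Ngp*, plus), chr9:111019042-111019291 (*Ltf*, plus) and chr2:32387740-32387989 (*Lcn2*, minus).
S100a8: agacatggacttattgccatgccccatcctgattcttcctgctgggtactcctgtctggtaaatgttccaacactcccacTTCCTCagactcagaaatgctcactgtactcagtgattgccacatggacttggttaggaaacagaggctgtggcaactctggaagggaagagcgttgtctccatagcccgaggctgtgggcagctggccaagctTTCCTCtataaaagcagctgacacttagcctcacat
S100a9: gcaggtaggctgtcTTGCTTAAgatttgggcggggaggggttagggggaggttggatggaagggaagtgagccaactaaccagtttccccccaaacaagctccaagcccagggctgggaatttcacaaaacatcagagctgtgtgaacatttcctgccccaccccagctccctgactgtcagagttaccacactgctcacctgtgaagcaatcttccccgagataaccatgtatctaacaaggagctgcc
Stfa1: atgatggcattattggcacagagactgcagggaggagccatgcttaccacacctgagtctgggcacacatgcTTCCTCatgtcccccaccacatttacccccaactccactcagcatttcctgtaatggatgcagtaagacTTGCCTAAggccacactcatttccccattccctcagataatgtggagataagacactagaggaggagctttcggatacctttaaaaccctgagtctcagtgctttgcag
Ngp: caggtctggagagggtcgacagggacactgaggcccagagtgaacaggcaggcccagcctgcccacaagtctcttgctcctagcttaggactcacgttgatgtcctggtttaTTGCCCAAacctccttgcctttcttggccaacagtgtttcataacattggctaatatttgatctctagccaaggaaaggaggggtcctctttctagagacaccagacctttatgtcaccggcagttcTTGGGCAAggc
Ltf: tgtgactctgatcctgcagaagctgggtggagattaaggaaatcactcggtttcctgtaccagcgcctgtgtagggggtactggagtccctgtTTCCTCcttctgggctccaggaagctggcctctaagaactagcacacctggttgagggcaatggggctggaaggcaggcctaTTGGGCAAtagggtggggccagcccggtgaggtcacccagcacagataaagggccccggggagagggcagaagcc
Lcn2: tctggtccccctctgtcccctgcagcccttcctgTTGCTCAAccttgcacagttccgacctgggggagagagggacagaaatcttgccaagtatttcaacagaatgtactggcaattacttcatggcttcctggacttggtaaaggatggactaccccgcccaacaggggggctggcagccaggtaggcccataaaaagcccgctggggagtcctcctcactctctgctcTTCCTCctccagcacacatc

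Of 18 neutrophil markers 17 had a promoter in the RefSeq table. TTGCNNAA was in 8 of the 17 (47.1%), among them *S100a9*, *Stfa1*, *Ngp*, *Ltf* and *Lcn2*, and in 3142 of 32851 promoters in all (9.56%). GAGGAA was in 11 of the 17 (64.7%) and in 23.3% of all promoters. Among the 11 were *S100a8*, *Ltf*, *Lcn2* and the stefin A copies *Stfa1*, *Stfa2* and *Stfa2l1*, so the 17 are not independent genes. In *S100a8* the GAGGAA matches began 170 and 36 bases before the start, and in *Ngp* the TTGCNNAA matches began 138 and 11 bases before it. A match describes the letters of the window and is no evidence of binding.

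Genes of the specific granules, which carry antimicrobial proteins, were the next group. Of 12 read, 8 were at least 4-fold higher in each library and none was lower. *Lcn2*, which binds bacterial iron carriers, was at 1637, 6556 and 6860.4 CPM in neutrophil cells and at 38.1, 132 and 159.7 CPM in the others. *Pglyrp1*, which binds peptidoglycan, was at 1556, 2846 and 2682 CPM against 33.0, 66.1 and 56.8 CPM, with the evenest ratio of the group (5.25 ± 0.07, SD, n = 3). *Wfdc21* had a mean log2 ratio of 6.00, *Mmp8*, the neutrophil collagenase, 5.43 and *Hp*, haptoglobin, 4.85. The other members of the list were not uniform, since *Camp*, the cathelicidin, and *Ltf*, lactoferrin, were at 17.5 and 5.83 CPM in 1-day replicate 1 and far higher in the other libraries.

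Genes of gelatinase granules and mature neutrophils were higher in 12 of 24 cases and lower in none. *Retnlg*, a resistin-like secreted protein, was at 6275, 8612 and 9637 CPM against 25.5, 202 and 226 CPM. *Mmp9* was at 1573, 880.4 and 582 CPM against 29.5, 28.4 and 16.1 CPM. *Il1r2*, the decoy receptor for interleukin-1, was at 1637, 399.6 and 88.0 CPM against 8.31, 11.4 and 2.14 CPM, lowest in the 1-week library. *Ifitm6* (mean log2 ratio 5.79), *Asprv1* (4.95) and *Slpi*, a protease inhibitor (4.92), were also among the 12.

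Of 9 primary granule and precursor genes 3 were read, and 2 of these, *Cebpe* and *Prtn3*, were at least 4-fold higher in each library. *Cebpe*, the transcription factor of granule maturation, was at 285, 572 and 637 CPM against 6.02, 13.1 and 10.7 CPM. *Prtn3*, proteinase 3, was at 69.9, 351 and 115 CPM against 0.860, 9.13 and 3.22 CPM, but 137 of its 272 UMIs in 1-day replicate 2 came from 1 cell. *Mpo*, myeloperoxidase, had 64 UMIs, all from 1 cell of 1-day replicate 2, and *Elane*, neutrophil elastase, had 20 UMIs in that library, 17 of them from 1 cell. *Fcnb*, a ficolin of early neutrophils, was at 0, 138 and 501 CPM, with a UMI in 0 of 68, 19 of 114 and 9 of 24 cells.

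**Figure D2:**
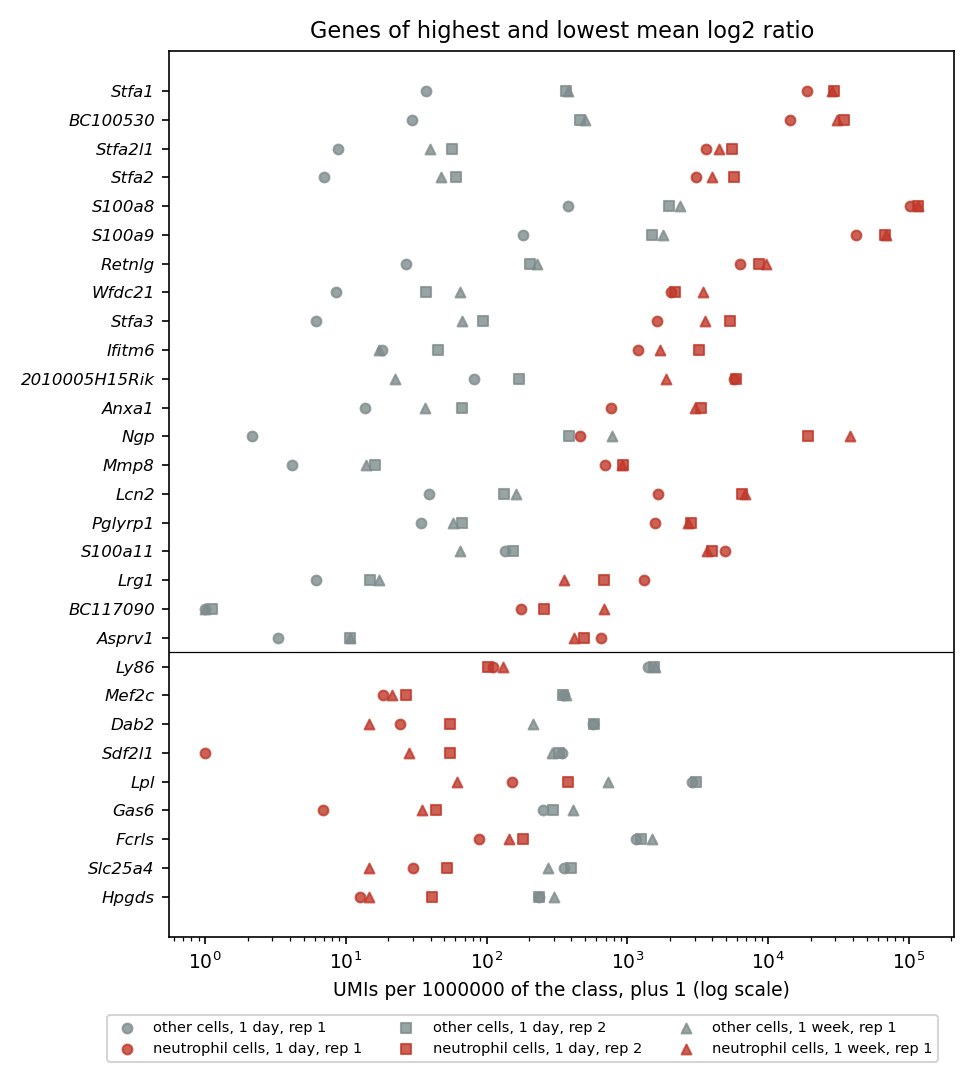
UMIs per 1000000 of the summed cells (log axis, 1 added) for the 20 genes of highest and, below the line, 9 of the lowest mean log2 ratio of neutrophil over other cells. Red marks neutrophil cells and grey the other cells of the same library, with a shape for each of the 3 libraries: *Stfa1* is at 18935 to 29444 in neutrophil cells.

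Of 10 receptors for chemoattractants and growth factors read, 4 were at least 4-fold higher in each library: *Cxcr2* (1060.3, 312 and 339 CPM against 5.44, 7.19 and 7.50), the leukotriene B4 receptor *Ltb4r1* (mean log2 ratio 4.12) and the formyl peptide receptors *Fpr2* (3.95) and *Fpr1* (3.20). *Csf3r*, the receptor of granulocyte colony-stimulating factor, was not, at 600.1, 162 and 67.7 CPM against 44.7, 27.3 and 54.7 CPM. The complement receptor *C5ar1* had a mean log2 ratio of 0.19. Cells of the 3-week slices also carried *Csf3r*, with a UMI in 442 of 1153 and 1013 of 3740 cells.

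Of 16 adhesion and surface genes 2 were higher, among them *Cd24a*, a surface glycoprotein of neutrophils (583, 327 and 467 CPM against 18.6, 9.59 and 5.36). The genes behind the sort were less far apart. *Itgam*, which encodes CD11b, was at 315, 205 and 189.6 CPM against 178, 159 and 140.4, and *Ptprc*, which encodes CD45, at 332, 199.8 and 163 against 141, 125 and 85.7. Their mean log2 ratios were 0.51 ± 0.24 and 0.89 ± 0.27 (SD, n = 3).

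None of the 6 genes of the NADPH oxidase, which makes the respiratory burst, reached 4-fold in each library, and their median log2 ratio was 1.40 beside −0.65 over all genes read. *Rac2*, a GTPase of the complex, was at 2499, 1711 and 1402 CPM against 456, 478 and 475, and *Ncf1* at 600.1, 538 and 461 against 105, 122 and 203. *Cyba*, shared with microglia, differed little (mean log2 ratio 0.41 ± 0.05). *Cybb*, the catalytic subunit, was at 23.3, 382 and 474 CPM in neutrophil cells against 112, 131 and 96.5, below the other cells in 1-day replicate 1 and above them in the rest.

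Cytokine genes were read for 9 members and none was 4-fold higher or lower in each library. *Il1b* was at 687, 191 and 74.5 CPM against 44.7, 45.4 and 13.9. *Il1rn*, the antagonist of the same receptor, was at 542, 87.7 and 13.5 CPM against 24.1, 22.3 and 9.65. The chemokines *Ccl3* (mean log2 ratio −2.18) and *Ccl4* (−2.41) were lower in neutrophil cells on average. Microbe and damage sensing (6 read), survival and death (9), interferon response (4) and proliferation (8) also had no member beyond 4-fold in each library. Among these were *Mcl1*, which delays neutrophil death (mean log2 ratio 0.62), *Bax* (−1.42), *Ifitm3* (2.15) and *Cd14* (−1.63). Of 17 genes of hypoxia and glycolysis 1 was higher, *Slc2a3*, a glucose transporter (169, 241 and 196 CPM against 26.1, 29.7 and 30.0), and *Gapdh* had a mean log2 ratio of −0.23.

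Of 13 transcription factors, 1 was higher, *Nfe2* (99.0, 125 and 81.3 CPM against 4.01, 4.79 and 3.22), and 4 were lower. Among these were *Mef2c* (17.5, 25.8 and 20.3 against 351, 348 and 364), *Irf8* (46.6, 63.2 and 74.5 against 431, 386 and 556) and *Cebpa* (mean log2 ratio −2.58). The first pair are macrophage and microglia factors, and *Cebpa* acts early in the making of granulocytes. *Spi1*, which encodes PU.1 and serves both cell types, was at 1253, 779.9 and 515 CPM against 575, 543 and 513.

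In the other direction 84 of 3101 genes (2.71%) were at least 4-fold lower in each library. This count was 0 with the line at 0.5% of *S100a8* and *S100a9*, 16 with 50 CPM added in place of 10, and 145 without 1-day replicate 2. Microglia markers were lower in 8 of 14 cases, *C1qa*, *C1qb*, *C1qc*, *Csf1r*, *Cx3cr1*, *Gpr34*, *Olfml3* and *Trem2*. *C1qa* was at 303, 525 and 1145 CPM against 3254, 2965 and 6471, and *Cx3cr1* at 35.0, 126 and 115 against 523, 541 and 917. Among the genes of lowest mean log2 ratio were *Ly86* (−3.62 ± 0.16, SD, n = 3), *Mef2c* (−3.55), *Dab2* (−3.51), *Sdf2l1*, *Lpl*, *Gas6*, *Fcrls*, *Slc25a4* and *Hpgds*.

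Microglial RNA was nevertheless present in the neutrophil cells. The level of the 14 microglia markers was a median of 10.6%, 22% and 16% of that in the other cells of the 3 libraries, with *Tmem119* at 0, 15.5 and 40.6 CPM and *P2ry12* at 87.4, 29.6 and 54.2 CPM. In 8, 13 and 2 cells of these libraries the microglia marker share was at least as close to the median of the other cells as to 0. No doublet caller was run, and whether these 23 cells are doublets was not tested. Of the other cell types, monocyte markers (4 read), dendritic cell markers (3) and neural markers (1) had no gene 4-fold higher or lower in each library, and of 2 border macrophage markers *Pf4* was lower (5.83, 30.9 and 20.3 CPM against 264, 230.2 and 128). Lymphocyte markers and markers of mast cells, basophils and eosinophils were too low to be read, the latter summing to 5.16 to 6.77 CPM in neutrophil cells. The 4 haemoglobin genes summed to 3624 CPM in the other cells of 1-day replicate 1 and to 128 CPM in its neutrophil cells, and were near 0 elsewhere.

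In 2 of the 3 libraries the neutrophil cells differed among themselves in the granule genes. The share of a cell's UMIs from *Ngp*, a neutrophilic granule protein, with *Camp* and *Ltf* was over 0.5% in 1 of 68 cells of 1-day replicate 1, in 56 of 114 cells of 1-day replicate 2 and in 12 of 24 cells of 1-week replicate 1. These are 1.47% (exact 95% interval 0.0372 to 7.92), 49.1% (39.6 to 58.7) and, for the 12 of 24, a share with an interval of 29.1 to 70.9%. The line was set after the values were seen, above the highest other cell of each library (0.162%, 0.231% and 0.480%), and 1, 8 and 5 cells lay between 0.25% and 1%. Such granule-rich cells gave more UMIs, with median UMIs of 6824 against 3101.5 in 1-day replicate 2 and 7848.5 against 3821.5 in 1-week replicate 1.

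Summed over each class, 15 of 1391 genes (1.08%) were at least 4-fold higher in granule-rich than in granule-poor cells of both libraries, with 10 CPM added to each side, and 31 (2.23%) at least 4-fold lower. Since the cells were split by their RNA, these are descriptions. With sums under 3 UMIs raised to that limit, 9 of the 15 and 24 of the 31 remained 4-fold apart in both, and *Pcna*, *Rrm2*, *Hist1h2ap* and *2810417H13Rik* were among those that did not. The granule-rich class was not uniform. In 1-day replicate 2, 16 of its 56 cells had over 10000 UMIs, a line set after the values were seen, and gave 313394 of the 557899 UMIs, and in 1-week replicate 1 5 of 12 cells gave 59917 of 97605. These cells were low in *Retnlg*, with a median share of 0.0369% and 0.0499% against 1.91% and 1.66% in the other granule-rich cells. *Fcnb* was at 192 CPM in granule-rich and 0 in granule-poor cells of 1-day replicate 2, and at 727 and 59.9 CPM in 1-week replicate 1. A count of 0 in the granule-poor cells of 1-day replicate 2 allows up to 13.8 CPM. *Serpinb1a*, an inhibitor of granule proteases, was at 1120.3 against 91.8 CPM in 1-day replicate 2 (mean log2 ratio over both 4.14). *Lcn2* was at 8457 against 1689 and at 9477 against 1758 CPM, and *Anxa1* at 4332 against 803 and at 4231 against 639 CPM.

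Genes of the proliferation list were read in 4 cases, and 2, *Pcna*, the sliding clamp of DNA replication, and *Stmn1*, a regulator of microtubules, were among the 15. The cells of over 10000 UMIs gave most of this list's UMIs, 1995 of the 2505 in granule-rich cells of 1-day replicate 2 and 319 of 375 in those of 1-week replicate 1. Per 1000000 UMIs the list stood at 6366 and 5324 in these cells, at 2086 and 1486 in the other granule-rich cells and at 1157 and 959 in granule-poor cells. *Pcna* was at 354 CPM in the cells of over 10000 UMIs, 8.18 in the other granule-rich cells and 36.7 in granule-poor cells of 1-day replicate 2, and *Stmn1* at 517, 40.9 and 64.3 CPM. *Hist1h2ap*, a histone gene outside the list, was at 810 CPM, 16.4 and 18.4 CPM in the same order, and all 9 of its UMIs in 1-week replicate 1 came from 1 cell. *Top2a*, a topoisomerase of dividing cells, was at 131, 0 and 0 CPM in 1-day replicate 2. In 1-week replicate 1 a count of 0 allows up to 59.9 CPM in granule-poor cells, so that the difference in *Top2a* between the classes (61.5 against 0 CPM) was not detectable at this depth.

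Fewer of the called genes stood apart in the other granule-rich cells. Against granule-poor cells, 14 of the 15 higher and 30 of the 31 lower genes were 4-fold apart in both libraries in cells of over 10000 UMIs, and 4 of the 15 and 21 of the 31 in the remaining granule-rich cells. The 4 were *Anxa1*, *Lcn2*, *Serpinb1a* and *Cd177*. *Mki67* UMIs were found in 0 of 68, 15 of 114 and 3 of 24 neutrophil cells, and in 28 of 450, 85 of 900 and 10 of 124 other cells.

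Of 22 genes of mature neutrophils read in this split, 5 were at least 4-fold lower in granule-rich cells of both libraries and 1, *Cd177*, was as much higher, and of 6 cytokine genes 3 were lower and none higher. The median log2 ratios of these lists were −1.15 and −2.30, beside −0.52 over the 1391 genes. *Il1b* was at 5.38 against 666 CPM in 1-day replicate 2 and at 10.2 against 199.8 in 1-week replicate 1, and *Il1r2* at 108 against 1147 and at 10.2 against 239.7. *Ifitm1* was at 129 against 1717 CPM in 1-day replicate 2, while in 1-week replicate 1 its 0 against 59.9 CPM is under 2-fold by the limit of 30.7 CPM that a count of 0 allows. *Srgn*, *Ccl6*, *Csf3r*, *Clec4d*, *Il1rn*, *Wfdc17*, *Cd101*, *Sirpb1b*, *Sirpb1c* and *Pla2g7* were also among the 31, of which *Il1rn* and *Cd101* fell short of 4-fold by the same kind of limit. *Cxcr2* (199 against 601 and 205 against 599 CPM) and *Mmp9* (615 against 1561 and 441 against 859 CPM) were lower in both libraries but under 4-fold. *Retnlg* was at 7926 against 10369 and at 5901 against 16921 CPM. By cell, the median share of UMIs from *Retnlg*, *Mmp9*, *Cxcr2* and *Il1r2* together was higher in granule-rich cells of 1-day replicate 2 (1.15% against 0.529%) and lower in those of 1-week replicate 1 (0.742% against 1.93%).

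**Figure D3:**
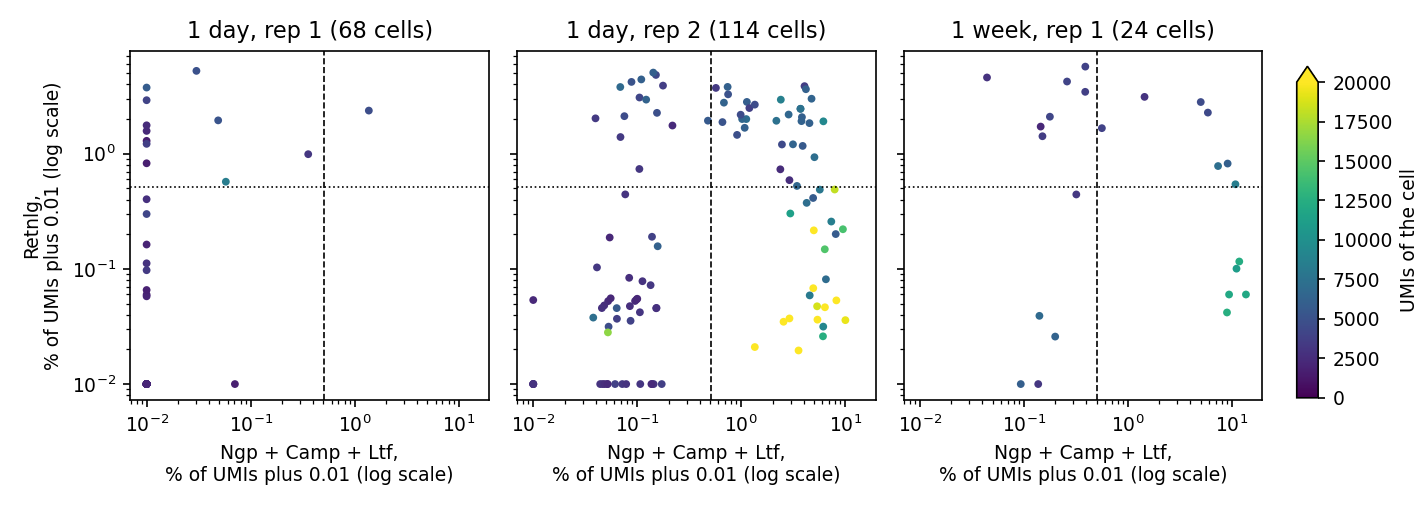
Each point is a neutrophil cell of 1 of 3 libraries, by its share of UMIs from *Ngp*, *Camp* and *Ltf* (x) and from *Retnlg* (y), both in % with 0.01 added on log axes, coloured by its UMIs. The lines stand at 0.5%: 1 of 68, 56 of 114 and 12 of 24 cells lie to the right, and the cells of most UMIs are low in *Retnlg*.

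The granule-poor cells differed in turn in *Retnlg*. With a line at 0.5% of UMIs, also set after the values were seen and above every other cell (highest 0.154%), 11 of 68, 15 of 114 and 7 of 24 neutrophil cells were granule-poor and *Retnlg*-rich, and 56, 43 and 5 were poor in both. No *Retnlg* UMI was found in 48 of the 56 and in 17 of the 43. The *Retnlg*-poor cells had less calprotectin, with a median *S100a8* and *S100a9* share of 10.0% and 8.96% in the 1-day libraries against 24.9% and 19.4% in *Retnlg*-rich cells. They also held most of the cells rich in microglial RNA, 7 of 8 and 13 of 13 at 1 day and 2 of 2 in 1-week replicate 1.

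In both 1-day libraries 11 of 1525 genes (0.721%) were at least 4-fold higher in the *Retnlg*-rich cells. *Mmp8* was at 2194 against 113 CPM in replicate 1 and at 1551 against 128 in replicate 2, *Ifitm6* at 3049 against 105 and at 3103 against 189, and *Stfa3* at 4412 against 332 and at 5616 against 202. *Wfdc17* (8939 against 372 and 3261 against 249.6 CPM), the chemokine-like *Prok2*, *Lcn2*, *Cd177*, *Thbs1*, *Stfa2*, *BC100530* and *BC117090* made up the rest.

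In the *Retnlg*-poor cells 36 of the 1525 genes (2.36%) were at least 4-fold higher in both libraries with 10 CPM added, and 14 of them with sums under 3 UMIs raised to that limit, beside 10 of the 11 in the other direction. *Siglecf*, a sialic acid-binding lectin best known from eosinophils, was at 218 and 155 CPM in them and at 0 in *Retnlg*-rich cells. There 0 allows up to 69.3 and 43.1 CPM, so that a 4-fold difference in *Siglecf* is not shown by these limits. Its 27 UMIs in each of the libraries were spread over 17 and 15 cells. *Clec4n*, a receptor for fungal glycans, was at 631 against 0 CPM and at 1153 against 71.8 CPM, and *Ltc4s*, the leukotriene C4 synthase, at 501 against 0 and at 277 against 14.4 CPM. *Il1rn* (736 against 46.2 and 378 against 43.1 CPM), *Ninj1*, *Ptgs1* and *Ly6e* were among the 14, and *Csf1* and *Ccrl2* among the 36 alone. *Cxcr2* was lower in *Retnlg*-rich cells of both libraries but under 4-fold (508 against 1286 CPM in replicate 1 and 560.2 against 621 CPM in replicate 2), and *Mmp9* was lower in replicate 1 and higher in replicate 2 (1224 against 1706 and 1666 against 1511 CPM). In 1-week replicate 1, with 7 and 5 cells, the sign was the same for 8 of the 11 and 20 of the 36 genes. The same count over all genes was not taken, so no agreement between the times is read from these.

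**Figure D4:**
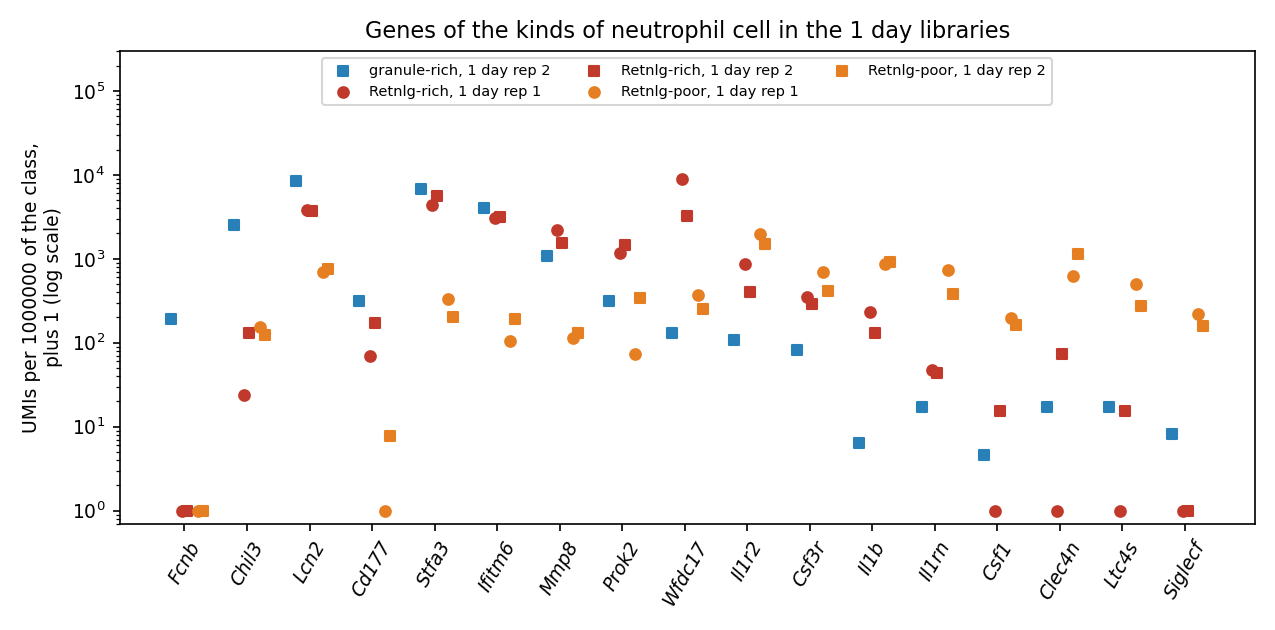
UMIs per 1000000 of each class of neutrophil cell (log axis, 1 added) in the 1-day libraries for 17 genes. *Siglecf* is at 218 and 155 in *Retnlg*-poor cells and at 0 in *Retnlg*-rich cells, and the granule-rich class is shown for replicate 2, since replicate 1 held 1 such cell.

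The replicates at 1 day differed in these same genes. *Ngp* was at 460.3 CPM in the neutrophil cells of 1-day replicate 1 and at 19185 CPM in those of replicate 2, beside 38013 CPM in 1-week replicate 1, and 64 of the 79 UMIs in replicate 1 came from 1 cell. *Camp* was at 17.5, 9704 and 19484 CPM and *Chil3*, a chitinase-like protein of immature cells, at 122, 1841 and 4693 CPM. *Il1r2* ran the other way, at 1637, 399.6 and 88.0 CPM, as did *Cxcr2* at 1060.3, 312 and 339 CPM. By the same line 67 of the 68 neutrophil cells of 1-day replicate 1 were granule-poor. Their sum lay nearer to granule-poor than to granule-rich cells for 14 of the 15 higher and 28 of the 31 lower genes of the split. This follows in large part from the line itself, and the same count over all genes was not taken. The libraries also differed in the kind of sex-linked RNA, *Xist* in 1-day replicate 1 and 1-week replicate 1 and mostly Y-linked in 1-day replicate 2, and its part in the difference was not tested.

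**Figure D5:**
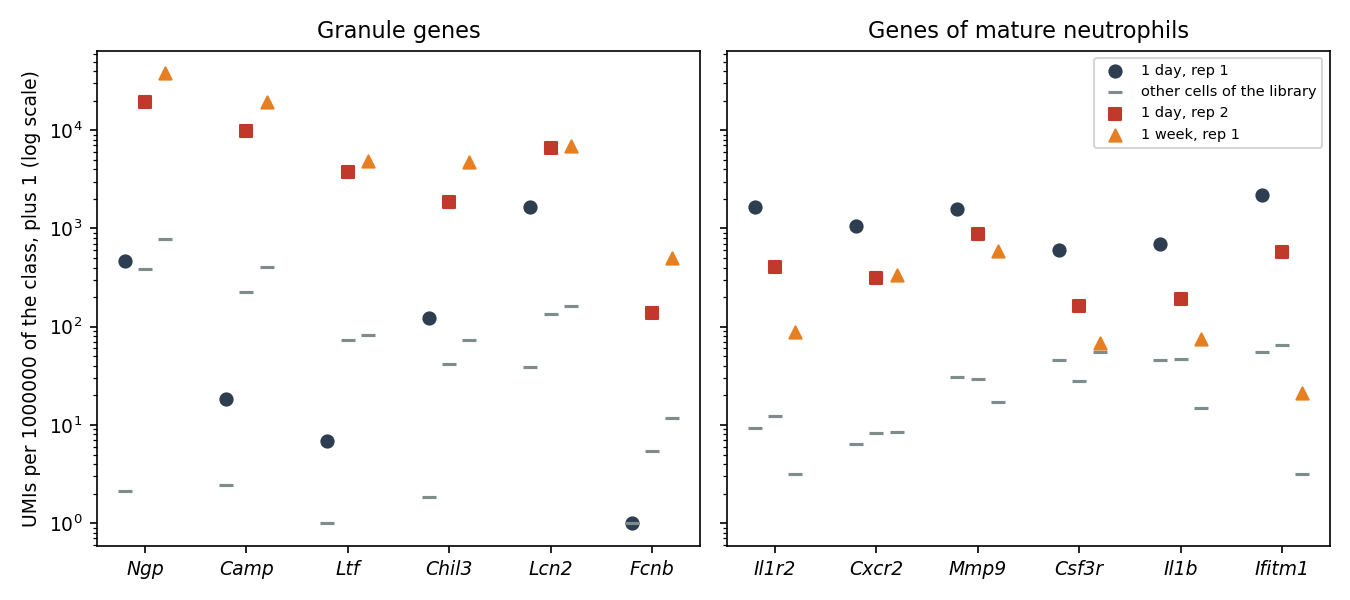
UMIs per 1000000 (log axis, 1 added) in the neutrophil cells of 3 libraries for 6 granule genes (left) and 6 genes of mature neutrophils (right), with dashes for the other cells of the same library. *Ngp* runs from 460.3 to 38013 and *Il1r2* from 1637 down to 88.0.

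For culture time, the 1-week neutrophil cells of replicate 1 were compared with those of both 1-day libraries by edgeR's quasi-likelihood test on summed UMIs. The 1-week side is 1 library, assumed to vary like the 1-day pair, and 1 residual degree of freedom remained. The summed cells differed in make-up, as granule-rich cells were 1 of 68 and 56 of 114 at 1 day and 12 of 24 at 1 week. *Fcnb*, *Ifitm1*, *Il1r2* and *Il1rn*, named below, were also among the genes of the granule split. The part of this make-up, or of the difference between the 1-day replicates, in a change with time was not tested. Of 2384 genes, 10 rose (0.419%) and 12 fell (0.503%) at an FDR under 0.05 and over 1.5-fold. Unadjusted p were under 0.05 for 146 genes, and DESeq2 called 1 gene. With the line at 2% or 5% in place of 1%, edgeR called 0 genes, with 99 and 73 at an unadjusted p under 0.05.

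Of the 10 that rose, 4 were higher in neutrophil cells than in the other cells of 1-week replicate 1. *Fcnb* was at 0, 138 and 501 CPM (log2 fold change 2.78 ± 0.60 SE, edgeR FDR 0.00106), with 32 of its 74 UMIs at 1 week from 1 cell. *Ly6g* was at 29.1, 42.5 and 163 CPM (2.28 ± 0.63 SE, edgeR FDR 0.0326). *Lyz1*, a lysozyme, was at 17.5, 28.4 and 223 CPM, and *Clec12a*, an inhibitory lectin, at 0, 119.9 and 291 CPM. In the other cells *Fcnb* was at 0, 4.45 and 10.7 CPM, *Ly6g* at 0.287, 0.571 and 1.07 CPM, *Lyz1* at 4.30, 5.48 and 51.4 CPM and *Clec12a* at 14.9, 15.6 and 47.2 CPM, highest at 1 week there too. None of the 4 passed the interaction test of a different change in the 2 classes of cells (edgeR FDR 1 for each). The other 6, *Apoc1*, *Gpx3*, *Sepp1*, *Pld4*, *Rpl36-ps3* and *Gm6133*, were higher in the other cells, as *Apoc1* was at 166, 113 and 1135 CPM there and at 35.0, 34.8 and 284 CPM in the neutrophil cells.

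Of the 12 that fell, *Ifitm1*, an interferon-induced membrane protein, was at 2185, 575 and 20.3 CPM (log2 fold change −5.71 ± 1.01 SE, edgeR FDR 1.94e-05), *Il1r2* at 1637, 399.6 and 88.0 CPM (−3.17 ± 0.80 SE, edgeR FDR 0.0126) and *Il1rn* at 542, 87.7 and 13.5 CPM. *Cxcl3*, a ligand of CXCR2, was at 279.6, 58.0 and 0 CPM, where 0 allows up to 20.3 CPM, and *Thbs1* at 117, 174 and 0 CPM. In the other cells *Ifitm1* was at 53.9, 64.5 and 2.14 CPM, *Il1r2* at 8.31, 11.4 and 2.14 CPM and *Il1rn* at 24.1, 22.3 and 9.65 CPM, lower at 1 week there too, and none of the 3 passed the interaction test (edgeR FDR 1, 1 and 0.997). *Socs3*, *Bcl3*, *Jun*, *Igfbp6*, *Hsp90aa1* and *Clec4n* were the others, with *Hspa1a*. The heat shock gene *Hspa1a* was at 2278, 5.16 and 0 CPM, but 389 of its 391 UMIs in 1-day replicate 1 came from 1 cell.

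By list, the neutrophil cells of 1-week replicate 1 lay above both 1-day libraries for 9 of 12 specific granule genes, against 23.8% of all genes, and 0 of the 12 passed the test. They lay above both for 4 of 5 monocyte markers too, with *Ccr2* at 0, 15.5 and 81.3 CPM, and none of the 5 passed. They lay below both for 47.3% of all genes. A gene with 0 UMIs at 1 week counted as below both if each 1-day library held any. Since 0 allows up to 20.3 CPM there, counts below both depend on depth too. The counts below both were 11 of 13 for survival and death, 8 of 10 for cytokines, 5 of 5 for interferon response and 13 of 17 for hypoxia and glycolysis. They were 8 of 11 for receptors, 8 of 11 for transcription factors, 10 of 15 for adhesion and 4 of 6 for sensing of microbes and damage, and nearer to the share of all genes for mature neutrophils (13 of 24) and NADPH oxidase (3 of 6). By the test 2 cytokine genes, 2 genes of mature neutrophils and 1 transcription factor, *Jun*, fell, and none of the other lists named here. For the 12 microglia markers read, 7 lay above both 1-day libraries and none passed the test, and the other cells of the 1-week library had a median microglia marker share of 9.08% against 2.36% and 2.24% at 1 day.

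The single neutrophil cell of 1-week replicate 2 held 2022 UMIs and 966 genes. *S100a8* gave 176 UMIs and *S100a9* 130, *Stfa1* and *BC100530* 43 each, *Gm5483* 37 and *Retnlg* 31. It had no UMI of *Ngp*, *Camp*, *Ltf*, *Lcn2*, *Cxcr2* or *Mmp9*, while *Apoe* gave 9 and *C1qb* 2. By the lines above it was granule-poor and *Retnlg*-rich.

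In the 3-week libraries the leading neutrophil genes were at or near 0. *S100a8* and *S100a9* together were at 3.33 and 0.985 CPM of the library, against 7225 and 18127 CPM at 1 day and 28925 and 864 CPM at 1 week. *Stfa1* and *Retnlg* had a UMI in none of 1153 and none of 3740 cells. The 16 further markers summed to 81.7 and 61.7 CPM at 3 weeks, 205 and 178 CPM in adult and 30.0 and 21.3 CPM in *in vitro* libraries. Most of each of these sums was *Csf3r*, at 77.1 and 58.2, 203 and 176, and 22.6 and 17.7 CPM in the same order. In a sum over a whole library, fewer neutrophils and less RNA in each cannot be told apart.

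Monocyte genes were uneven among the neutrophil cells. *Ccr2* had a UMI in 0 of 68, 4 of 114 and 3 of 24 cells, against 27 of 450, 50 of 900 and 5 of 124 other cells. *Ear2* had one in 1, 6 and 3 neutrophil cells, against 30, 55 and 0 other cells. *Ly6c2* was at 17.5, 468 and 555 CPM in neutrophil cells and at 0, 11.0 and 15 CPM in the others, with a UMI in 3, 61 and 17 neutrophil cells. *Plac8* was at 117, 447 and 251 CPM against 98.9, 61.7 and 3.22 CPM.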

How the data were processed

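The authors deposited 1 table of unnormalised UMI counts for each library, by gene and barcode, with 6836 barcodes in the slice libraries. Per the submitters' processing notes, Cell Ranger 1.3.0 and the build mm10 were used. Alignment, cell calling and UMI collapsing were done upstream, and a gene without a count in a table was taken as 0. The cell limits are those of the paper, and they removed 202 slice barcodes, which left 61 to 3740 cells and 385373 to 22332658 UMIs per slice library. The paper also set outlier cells apart by t-SNE, which was not done here. It reports fewer cells at 1 week than the 148 and 61 read here. The cells here are therefore not the set that the paper analysed, and shares of neutrophils in that set are not known. The members, gene lists and lines were chosen with earlier results of these data known. Genes absent from the tables were not analysed here.

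Counts were summed over the cells of a class in each library with at least 10 neutrophil cells (3 libraries). Classes were compared as log2 of CPM plus 10, for genes of at least 50 CPM in either class (100 CPM within the neutrophil cells), without a test. Culture times were compared with edgeR 4.0.16 (TMM, filterByExpr minimum 10, glmQLFit and glmQLFTest, Benjamini-Hochberg), the tool and thresholds of the paper, in R 4.3.3. DESeq2 1.42.0 was an alternative. *S100a8* and *S100a9* were left out of counts of genes. Named genes were the 5 leading markers, the members of 22 gene lists, the 20 highest and 10 lowest ratios, and the called genes, of which 3 are not reported here. Genes of the classes by granule genes and *Retnlg* were named after their values were seen. Shares have exact Clopper-Pearson intervals, and 0 of n cells allows 3 of n. Scripts were tested on simulated data.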

Additional observations from a re-analysis of the deposited data

Results flagged for a closer look

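In 1-day replicate 2, 7 barcodes with at least 1% *S100a8* and *S100a9* lay outside the comparisons, since they held more than 30000 UMIs. They had 31496 to 40319 UMIs and 4251 to 4758 genes, with 13.1 to 19.2% of UMIs from *S100a8* and *S100a9* and 1.62 to 5.04% from *Ngp*, *Camp* and *Ltf*. *Retnlg* gave 3 to 14 UMIs and the primary granule genes 8 to 126 in each, and microglia markers were 0.357 to 0.408% of UMIs.

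For 4 genes the change from 1 day to 1 week differed between neutrophil cells and the other cells of the same libraries, by an interaction term in edgeR's quasi-likelihood fit that was added after the data were seen. The log2 difference of the changes was 4.45 ± 0.85 (SE) for *Plac8* (FDR 0.000382), −3.93 ± 0.74 for *Clec4n* (FDR 0.000365), −3.69 ± 0.65 for *Ltc4s* (FDR 5.67e-05) and −4.36 ± 0.65 for *Wfdc17* (FDR 2.05e-07). *Plac8* was at 117, 447 and 251 CPM in neutrophil cells of 1-day replicates 1 and 2 and 1-week replicate 1 and at 98.9, 61.7 and 3.22 CPM in the others. *Wfdc17* was at 2563, 434 and 305 CPM in neutrophil cells and at 59.0, 68.2 and 374 CPM in the others. *Ltc4s* was at 367, 65.7 and 94.8 CPM against 102, 58.5 and 599 CPM, and *Clec4n* at 454, 238 and 33.9 CPM against 81.1, 64.6 and 113 CPM. The 1-week values are those of 1 library.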

How the results depend on the processing

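With a line at 0.5% of *S100a8* and *S100a9*, where the other cells of 2 libraries begin, the neutrophil share was 15.4% in 1-day replicate 2 and 31.8% in 1-week replicate 1, and with a line at 5% it was 10.2% in 1-day replicate 1. The mean share over the 6 libraries ran from 5.20 to 8.45% with each left out. The count of 93 higher genes was 143 with 1 CPM added and 44 with 50 CPM, and 108 to 128 with a library left out, since fewer libraries had to pass. The count of 84 lower genes was 0 with the line at 0.5%, 171 with 1 CPM added and 16 with 50 CPM, and 101 to 145 with a library left out (145 without 1-day replicate 2, 134 without 1-week replicate 1). For 28 named genes, 277 of 336 alternative ratios moved by less than 1 SD, 59 by more, and 0 changed sign.

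The count of 22 genes between 1 week and 1 day in edgeR's fit was 11 with the line at 0.5%, 0 at 2% (99 at an unadjusted p under 0.05) and 0 at 5% (73), 8 without the cells rich in microglial RNA and 1 in DESeq2. The causes were not tested. The count of 4 interaction genes was 7 with the line at 0.5% and 7 at 2%. With lines at 0.25% and 1% for the granule genes, added after the data were seen, granule-rich cells were 2.94%, 50% and 66.7%, and 1.47%, 43.0% and 45.8%. In the split by granule genes, the counts of 15 higher and 31 lower genes came to 9 and 24 with low sums raised to 3 UMIs, to 14 and 30 with granule-rich cells of over 10000 UMIs alone and to 4 and 21 with the remaining ones. In the split by *Retnlg*, 10 of 11 and 14 of 36 remained with low sums raised to 3 UMIs. These settings were also added after the data were seen. No paired analysis was possible because, between 1 week and 1 day, a replicate term over the 3 libraries with at least 10 neutrophil cells leaves no residual degree of freedom. The interaction fit, over neutrophil and other cells of the same libraries, held a term for each library. The comparisons with 3 weeks could not be fitted, as no neutrophil cell was found there, nor could the 1-week comparison with a library left out or with the study label, which is the same in the 3 libraries. At 1 week the 24 neutrophil cells of replicate 1 held 147660 UMIs, and a gene with 0 UMIs may be at up to 20.3 CPM.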
